A study of Homo sapiens with 6 samples.

Results

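The genes described here encode the proteins of the cytosolic ribosome. They were chosen by name: every row of the deposited table whose symbol begins with RPL or RPS and a digit, plus RPSA and the stalk genes RPLP0, RPLP1 and RPLP2. Kinase symbols beginning with RPS6K (10), and 5 readthrough, pseudogene or binding-protein symbols, were left out. The rule found 87 genes among 19475 symbols. Of these, 31 encode proteins of the small (40S) subunit and 46 encode proteins of the large (60S) subunit, 77 genes of the mature ribosome in all. A further 9 are paralogues of such genes (RPL10L, RPL22L1, RPL26L1, RPL36AL, RPL39L, RPL3L, RPS27L, RPS4Y1 and RPS4Y2), and RPL7L1 encodes a ribosome assembly protein that is not part of the mature ribosome. In all, 84 passed the filter on low counts, and RPL10L and RPL3L were listed at 0 in every library. Levels of the Y-linked RPS4Y1 and RPS4Y2 are not reported here.

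Gene expression was measured by RNA sequencing, after removal of ribosomal RNA, in MH7A cells, an immortalized line of human synovial fibroblasts from a joint with rheumatoid arthritis. All 6 libraries came from cells given the inflammatory cytokine TNFα at 10 ng/ml. Cells of 3 libraries, numbered 4, 6 and 10, were in addition exposed 3 times to a 630 nm LED, each time for 15 min (LED libraries). Cells of the other 3, numbered 2, 8 and 14, had TNFα without light (TNF libraries). The design holds neither cells without TNFα nor a sham or warmed control, and a single cell line stands for the tissue. The labels do not say that samples of a group came from separate cultures, so a p-value reflects only sample-to-sample spread, possibly technical. The question put by the design is which transcripts LED exposure alters when TNFα is present.

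The deposited estimated counts summed to 104438193, 108074289 and 94615430 in LED libraries 4, 6 and 10, and to 107139947, 102668851 and 86000253 in TNF libraries 2, 8 and 14. A sequenced fragment appeared to be worth about 4 of these units. The 12 fibroblast markers examined were all present, including COL1A1 and PDPN. Of 15 markers of macrophages, leukocytes, endothelium and epithelium, 13 were under 2 CPM (counts brought to a common total with TMM scaling) in every library, the exceptions being CD68 and KRT18. Library LED 6 stands apart from the other LED libraries, and TNF 8 from the other TNF libraries, so fold changes that move by over 1.5 times without LED 6 are also given without it.

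Ribosomes translate messenger RNA into protein. Each mature ribosome holds 1 copy of nearly every ribosomal protein, and cells make these proteins in balanced amounts. Their messenger RNAs are short, abundant and stable, and most begin with a 5′ terminal oligopyrimidine (TOP) tract, a cytosine at the transcription start followed by a run of pyrimidines. Through this tract the growth-regulating kinase mTOR controls how strongly they are translated, largely through the repressor LARP1. In synovial fibroblasts, as in other cells, making ribosomes accompanies growth and proliferation.

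The start sites of some of the genes named below illustrate this tract. Each line gives 30 bases from the RefSeq promoter table on GRCh38.p14, with 15 bases before the annotated transcription start and 15 from it onward, written 5′ to 3′ on the gene's own strand. Capitals mark the run of pyrimidines that begins at the first transcribed base, and a line with no capitals has no such run. The first 4 are 40S and 60S genes, among those with the largest fold changes or the highest counts, and the others set paralogues beside their partner genes.
RPS6, chr9:19380222-19380251, minus strand: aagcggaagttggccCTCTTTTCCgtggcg
RPS23, chr5:82278340-82278369, minus strand: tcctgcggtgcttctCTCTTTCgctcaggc
RPL14, chr3:40457324-40457353, plus strand: gggcgggtcttcttcCTTCTCgcctaacgc
RPLP0, chr12:120201097-120201126, minus strand: gcgcgggcgcgaggcCCTTCTCTCgccagg
RPL22, chr1:6199581-6199610, minus strand: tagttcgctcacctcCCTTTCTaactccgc
RPL22L1, chr3:170870181-170870210, minus strand: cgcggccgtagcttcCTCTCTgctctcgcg
RPL26, chr17:8383179-8383208, minus strand: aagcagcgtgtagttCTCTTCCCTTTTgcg
RPL26L1, chr5:172958714-172958743, plus strand: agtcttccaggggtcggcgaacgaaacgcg
RPS27, chr1:153990747-153990776, plus strand: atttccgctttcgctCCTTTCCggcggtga
RPS27L, chr15:63157463-63157492, minus strand: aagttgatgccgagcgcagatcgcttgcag
RPL36A, chrX:101390996-101391025, plus strand: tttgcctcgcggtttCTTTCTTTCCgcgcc
RPL36AL, chr14:49620612-49620641, minus strand: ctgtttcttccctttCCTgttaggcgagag

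A TOP start was counted where the first annotated base was C and at least 4 pyrimidines followed it on the transcribed strand, at any listed start of the gene. Of 62 mature ribosome genes with a promoter entry, 46 (74.2%) had one. The same letters stood at a listed start of 1404 of 27305 genes in the whole promoter table (5.14%). Of tested genes outside the mature ribosome with a promoter entry, 750 of 10748 had them (6.98%). Among paralogues and RPL7L1, 2 of 8 had one (25%), and RPL22L1 was one of them. The starts of RPL26L1 and RPS27L began with G, while those of their partners RPL26 and RPS27 carried pyrimidine runs. An annotated start is a single coordinate, so the absence of these letters says only that they are not at that base.

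None of the 84 ribosomal protein genes tested differed between LED and TNF libraries at an adjusted p below 0.05. With edgeR's quasi-likelihood test, 0 were higher and 0 lower, against 336 (2.44%) and 377 (2.73%) of the 13794 genes tested, or 5.17% called in either direction. The lowest adjusted p among the 84 was 0.109, for RPL22L1. At an unadjusted p below 0.05 there were 0 higher and 2 lower (RPL22L1 and RPL39L), or 2.38% of the 84 genes, against 22.7% of all genes. DESeq2 called these same 2 genes lower (adjusted p = 0.0327 for RPL22L1 and 0.0296 for RPL39L) and no ribosomal protein gene higher, and limma-voom called none. Over all genes, DESeq2 called 1646 in either direction and limma-voom 642, against 713 with edgeR.

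The fold changes of the mature ribosome genes lay in a narrow band above 0. All 77 were positive, with a median log2 fold change of 0.35 in the 40S genes (0.20 to 0.48) and 0.35 in the 60S genes (0.16 to 0.47), or 1.27-fold at the median over all 77. The standard error of a single mature gene was at least 0.20 and at most 0.29, so these differences were of the order of 1 to 2 standard errors. Over all 84 genes the median was 0.34, with quartiles of 0.27 and 0.39, and 81 were positive. Over all 13794 genes the median was 0.01, with quartiles of -0.29 and 0.32. The median of the 84 was 0.06 without LED 6, with 65 genes positive and 19 negative. It was 0.14 without both LED 6 and TNF 8, with 78 positive and 6 negative.

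**Figure D1:**
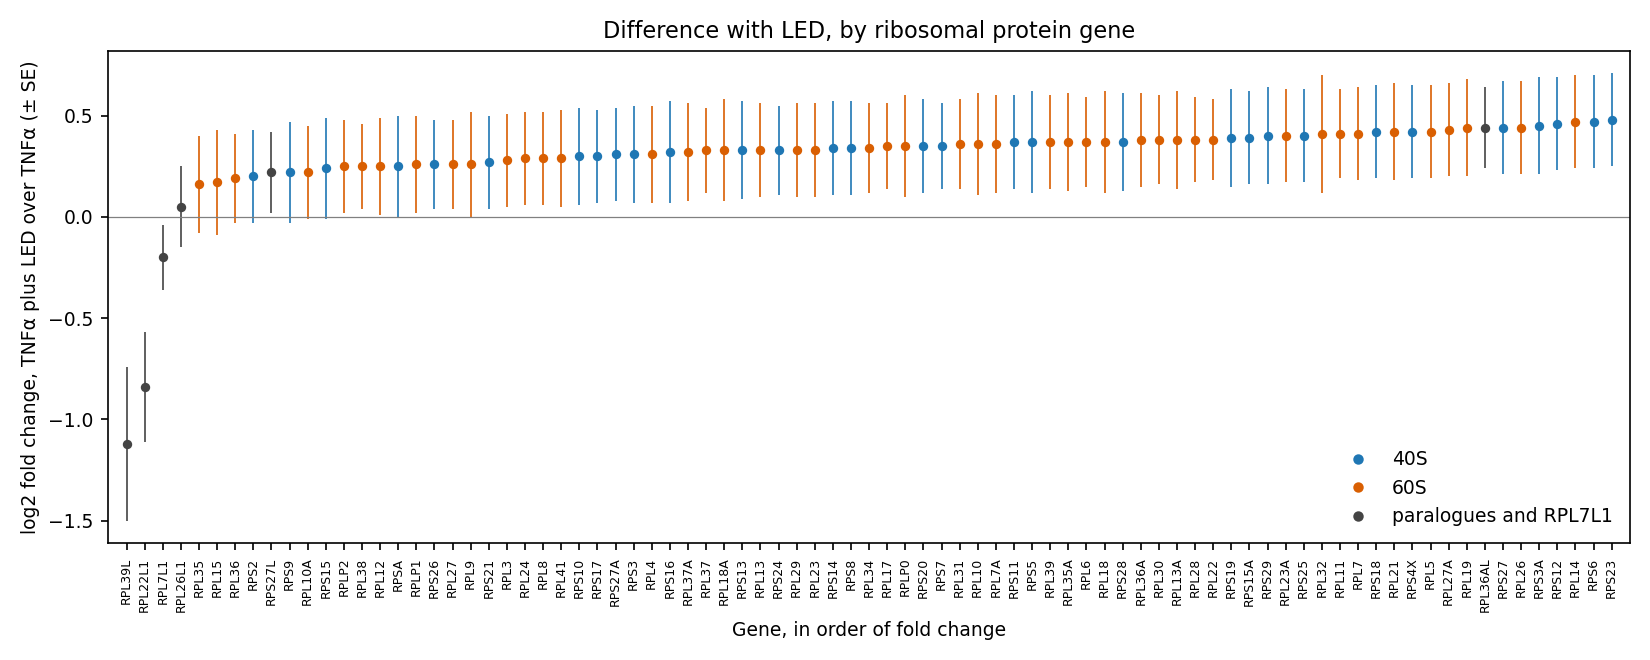
Log2 fold change (TNFα plus LED over TNFα alone, y axis) with its standard error (vertical line) for each ribosomal protein gene with a value shown (x axis, in order of fold change), in blue for 40S, orange for 60S and grey for paralogues and RPL7L1, n = 3 libraries per group. All 40S and 60S genes lie between 0.16 and 0.48, while RPL39L and RPL22L1 lie at -1.12 and -0.84.

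The groups overlapped for 75 of the 84 genes. All LED libraries were above all TNF libraries for 7 genes (8.33%), against 16.2% of all genes tested. These were RPS23, RPL11, RPL14, RPL22, RPL26, RPL28 and RPL36AL. All LED libraries were below all TNF libraries for RPL22L1 and RPL39L (2.38%), against 16.2% of all genes. The share with groups apart in either direction was 32.4% over all genes.

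One library held most of the difference. The deviation of a gene in a library was taken as its log2(CPM + 0.5) minus the mean of that gene over the 6 libraries. The median deviation of the 77 mature genes was -0.01, 0.64 and -0.17 in LED 4, 6 and 10, and -0.14, -0.01 and -0.30 in TNF 2, 8 and 14. LED 6 was the highest library for 76 of 77 genes, while LED 10 lay below TNF 2 and TNF 8 at the median. TNF 14 was the lowest library for 68 genes, LED 10 for 6 and TNF 8 for 3. The level in LED 6 relative to the mean of the other 5 libraries had a median of 1.69-fold, with the lowest value in RPL15 (1.20) and the highest in RPL32 (2.00).

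**Figure D2:**
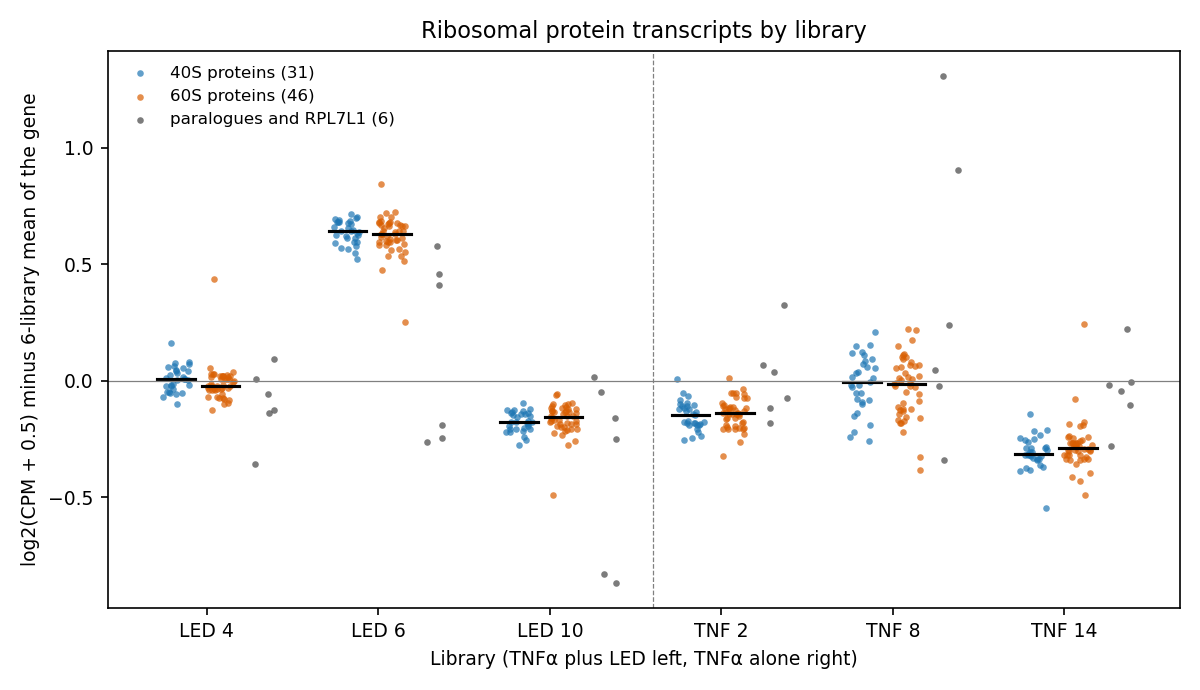
Deviation of each ribosomal protein gene from its own 6-library mean, in log2(CPM + 0.5) units (y axis), in each library (x axis), with 40S genes in blue, 60S genes in orange, paralogues and RPL7L1 in grey, and black bars at the medians of 40S and 60S. The mature genes form a tight cloud in every library, at a median of 0.64 in LED 6 and between -0.30 and -0.01 in the other 5 libraries.

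Ribosomal protein genes took 3.96%, 5.64% and 3.55% of all counts in LED 4, 6 and 10, and 3.69%, 3.81% and 3.26% in TNF 2, 8 and 14. The share averaged 4.38 ± 1.11% in LED libraries and 3.58 ± 0.290% in TNF libraries (SD, n = 3 each), and LED 6 was the only library above 4%. In bulk RNA a change in the number of cells of a kind and a change of RNA per cell cannot be told apart. Both subunits moved together. The ratio of 60S to 40S counts was 1.674, 1.681 and 1.692 in LED 4, 6 and 10, and 1.686, 1.686 and 1.699 in TNF 2, 8 and 14, with overlapping groups.

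Other values also set LED 6 apart, though not its total count, which was close to those of TNF 2 and LED 4. LED 6 had the lowest TMM scaling factor, 0.931, against 1.015 and 1.019 in LED 4 and 10 and 0.990 to 1.041 in TNF libraries. The heat shock gene HSPA1A, which encodes an inducible HSP70 chaperone, stood at 6009, 10652 and 3644 CPM in LED 4, 6 and 10, and at 188, 97.7 and 81.1 CPM in TNF 2, 8 and 14. Short genes outside the list were also high in LED 6. For 839 other genes with transcripts of at most 1000 bases the median deviation was -0.04, 0.23 and -0.14 in LED 4, 6 and 10, and -0.10, 0.14 and -0.11 in TNF 2, 8 and 14. For the 184 of these at least as abundant as the least abundant mature ribosome gene, it was -0.05, 0.35 and -0.16 in LED 4, 6 and 10, and -0.14, 0.15 and -0.12 in TNF 2, 8 and 14. The median annotated transcript of a mature ribosome gene was 802 bases long, against 2782 over all genes above 0. The part of scaling and transcript length in the ribosomal protein values of LED 6 was not tested.

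Within a library the mature genes differed little from each other. After subtraction of each library's median, the SD of their deviations was 0.070, 0.072 and 0.059 in LED 4, 6 and 10, and 0.062, 0.128 and 0.092 in TNF 2, 8 and 14. The same SD over all genes tested was between 0.281 and 0.501. That comparison was not matched for abundance. Only 3589 tested genes outside the list were at least as abundant as the least abundant mature gene, and no SD was computed for them alone. In LED 4, 6 and 10, 74, 70 and 72 of the 77 genes lay within 0.1 of the library median, and in TNF 2, 8 and 14, 70, 41 and 66 did. TNF 8 was the loosest library, and there the deviation of a gene correlated across the 77 genes with the GC content of its transcript (Pearson's r = 0.49). That r is a description, since the genes share 1 library, and it was -0.44 in TNF 2.

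RPL15 had the widest spread around the library medians. This gene of a 60S protein had 712, 628 and 375 CPM in LED 4, 6 and 10, against 421, 484 and 623 CPM in TNF 2, 8 and 14. By CPM it was high in LED 4, LED 6 and TNF 14 and low in LED 10 and TNF 2, so the groups overlapped and neither was uniformly higher. Relative to the library median it lay at 0.45, -0.38 and -0.32 in LED 4, 6 and 10, and at -0.18, -0.11 and 0.54 in TNF 2, 8 and 14. Its deviation from the library median had an SD of 0.40 over the 6 libraries, against a median of 0.06 for the 77 genes. RPL23A followed at 0.20, with a deviation of -0.37 from the median of TNF 8, and then RPL14 at 0.16. RPL23A also had 91 pseudogenes named after it in GENCODE 29, the most of any mature gene, while RPL15 had 9 and RPL14 had 4. RPSA (74) and RPL21 (66), next in number of pseudogenes, had SDs of 0.08 and 0.09. A link between pseudogene number and spread was not tested. In all, 1133 pseudogenes were named after 76 of the 77, and reads shared with such copies make the counts of single genes uncertain.

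The 5 genes with the largest fold changes were mostly 40S genes. RPS23, a protein of the decoding centre, had 586, 914 and 527 CPM in LED 4, 6 and 10, against 518, 483 and 452 CPM in TNF 2, 8 and 14. The groups did not overlap, though LED 10 lay only just above TNF 2. The log2 fold change was 0.48 ± 0.23 (SE), with an adjusted p of 0.246 by edgeR's quasi-likelihood test. RPS6, the classic substrate of the S6 kinases downstream of mTOR, had 1093, 1678 and 953 CPM in LED 4, 6 and 10, and 974, 870 and 853 CPM in TNF 2, 8 and 14. LED 10 lay below TNF 2, and the fold change was 0.47 ± 0.23 (adjusted p = 0.265, edgeR). RPL14 (0.47), RPS12 (0.46) and RPS3A (0.45) completed the group, with adjusted p of 0.272 to 0.305. Without LED 6 the fold changes of these 5 genes were 0.20 (RPS23), 0.19 (RPS6), 0.17 (RPL14), 0.17 (RPS12) and 0.15 (RPS3A), with adjusted p of 0.542 to 0.687. RPS3A had 572, 914 and 502 CPM in LED 4, 6 and 10, and 526, 501 and 429 CPM in TNF 2, 8 and 14, so that LED 10 lay within the TNF range. At the other end of the mature genes was RPL35, which lies near the exit of the peptide tunnel, with 379, 579 and 334 CPM in LED 4, 6 and 10, and 367, 465 and 324 CPM in TNF 2, 8 and 14. Its groups overlapped, with a fold change of 0.16 ± 0.24.

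RPLP0, the scaffold of the stalk that recruits translation factors, had the highest CPM of all ribosomal protein genes. It had 1569, 2510 and 1375 CPM in LED 4, 6 and 10, and 1366, 1642 and 1266 CPM in TNF 2, 8 and 14. LED 6 was the highest library and the other 5 overlapped, with a fold change of 0.35 ± 0.25 (adjusted p = 0.440, edgeR). RPS2 (0.20), RPL13A (0.38), RPL4 (0.31) and RPL3 (0.28), next in CPM, showed the same order, with LED 6 highest and LED 10 below TNF 8. Without LED 6, RPLP0 had a fold change of 0.05, RPL13A 0.08 and RPL4 0.01, and those of RPS2, RPL3 and RPL35 were -0.05, -0.01 and -0.11.

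Levels of the mature genes were also taken per kilobase of coding sequence, without regard to the rest of the transcript. The mean over 6 libraries had a median of 912 CPM per kb, with quartiles of 699 and 1108, and the lowest was RPS21 at 327. RPL41 lay far above the rest at 9193 CPM per kb, but only 75 of its 469 annotated transcript bases are coding. RPL13A (2291), RPS27 (1906) and RPS24 (1803) followed.

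RPL5, RPL11 and RPL23 can bind and inhibit MDM2, the ubiquitin ligase of p53, when ribosome assembly is disturbed. RPL11 had 637, 989 and 592 CPM in LED 4, 6 and 10, and 565, 582 and 527 CPM in TNF 2, 8 and 14. All its LED libraries were above its TNF libraries, by a narrow margin in LED 10, and the fold change was 0.41 ± 0.22 (adjusted p = 0.309, edgeR). RPL5 (0.42) and RPL23 (0.33) had overlapping groups and adjusted p of 0.315 and 0.439. RPS19, the gene mutated most often in Diamond-Blackfan anaemia, had 370, 589 and 335 CPM in LED 4, 6 and 10, and 310, 379 and 296 CPM in TNF 2, 8 and 14. Its fold change was 0.39 ± 0.24, and TNF 8 exceeded LED 4 and LED 10. Without LED 6 the fold change was 0.14 for RPL11, 0.14 for RPL5, 0.05 for RPL23 and 0.10 for RPS19.

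Fold changes were also set beside the start sites. The median log2 fold change was 0.35 (0.16 to 0.48) in the 46 genes with such a start and 0.33 (0.17 to 0.44) in the 16 without. In the 15 genes with no promoter entry it was 0.35.

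The paralogues had fold changes of both signs. RPL22L1 is a close relative of RPL22, and the products of both bind RNA. RPL22L1 had 33.8, 31.4 and 20.8 CPM in LED 4, 6 and 10, against 46.9, 70.3 and 36.8 CPM in TNF 2, 8 and 14. All LED libraries were below all TNF libraries, and the log2 fold change was -0.84 ± 0.27 (adjusted p = 0.109, edgeR). RPL39L, a relative of RPL39 that is most abundant in testis and in some tumours, had 5.31, 6.01 and 3.58 CPM in LED 4, 6 and 10, against 6.36, 17.9 and 8.17 CPM in TNF 2, 8 and 14. The groups did not overlap, though LED 6 and TNF 2 nearly met, and the fold change was -1.12 ± 0.38 (adjusted p = 0.123, edgeR). TNF 8 was the highest library for both, and without it both fold changes were -0.55.

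RPL36AL, a relative of RPL36A, had 138, 193 and 125 CPM in LED 4, 6 and 10, and 114, 102 and 120 CPM in TNF 2, 8 and 14. Its groups did not overlap, with a fold change of 0.44 ± 0.20 (adjusted p = 0.229, edgeR). RPS27L, a relative of RPS27 and a known p53 target, had 83.3, 114 and 74.0 CPM in LED 4, 6 and 10, and 78.6, 85.5 and 68.1 CPM in TNF 2, 8 and 14, a fold change of 0.22 ± 0.20 with overlapping groups. RPL26L1, a relative of RPL26, had 25.8, 37.6 and 23.6 CPM in LED 4, 6 and 10, and 28.9, 27.7 and 27.3 CPM in TNF 2, 8 and 14 (0.05 ± 0.20). RPL7L1, which acts in the assembly of the large subunit, averaged 131 ± 12.9 CPM in LED libraries and 151 ± 13.0 CPM in TNF libraries (SD, n = 3 each), with a fold change of -0.20 ± 0.16. It was lowest in LED 6, where the mature genes were highest. Without LED 6 the fold change was 0.23 for RPL36AL, 0.02 for RPS27L, -0.18 for RPL26L1 and -0.13 for RPL7L1.

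Relative to its partner gene, 4 of 5 paralogues were lower in every LED library than in every TNF library. By their own CPM only RPL22L1 and RPL39L were, while RPL26L1 and RPS27L overlapped between the groups. The level per kilobase of coding sequence was divided by that of the partner, a ratio chosen after the values had been seen. Coding and not transcript length was used, though annotated transcripts had 6434 bases for RPS27L and 359 for RPS27. The percentages are therefore not relative transcript numbers, but the length factor is the same in every library. By CPM, 16.2% of all genes tested were lower in every LED library than in every TNF library, and no such share was computed for ratios. RPL22L1 stood at 10.7%, 6.93% and 7.01% of RPL22 in LED 4, 6 and 10, against 16.3%, 25.1% and 14.6% in TNF 2, 8 and 14. RPL39L stood at 3.41%, 2.25% and 2.30% of RPL39 in LED 4, 6 and 10, against 4.20%, 11.1% and 5.99% in TNF 2, 8 and 14. Both ratios were lowest in LED 6 and highest in TNF 8.

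RPL26L1 averaged 4.10 ± 0.251% of RPL26 in LED libraries and 5.29 ± 0.129% in TNF libraries. RPS27L averaged 16.6 ± 1.23% of RPS27 in LED libraries and 19.0 ± 0.651% in TNF libraries. These means are given with their SD (n = 3 each). RPL36AL, at 85.6%, 73.9% and 83.8% of RPL36A in LED 4, 6 and 10 and at 77.3%, 67.1% and 86.7% in TNF 2, 8 and 14, overlapped between the groups. No p is given, since an exact permutation test of 3 against 3 libraries cannot go below 0.10. A difference shared by a paralogue and its partner cancels in this ratio, while a difference in the partner alone also moves it. The partners were highest in LED 6. The log2 fold change was 0.05 for RPL26L1 and 0.22 for RPS27L, while RPL26 and RPS27 both had 0.44. The lower ratios of these pairs thus went with higher partners and not with lower paralogues. RPL22L1 had -0.84 and RPL39L -1.12, while RPL22 had 0.38 and RPL39 0.37, so there both genes moved the ratio. None of these genes was called, and the cause was not tested.

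**Figure D3:**
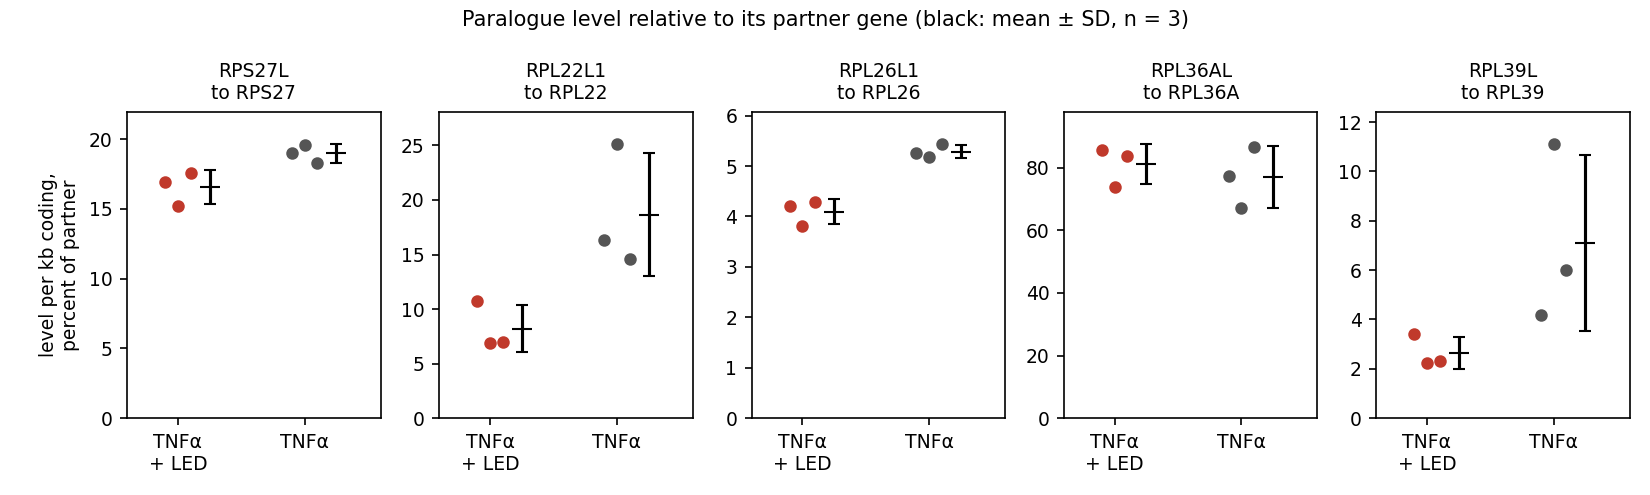
Level of each paralogue per kilobase of coding sequence as a percent of its partner gene (y axis, from 0), by library (points) with the mean and SD beside them (black), TNFα plus LED left and TNFα alone right, n = 3 each. RPS27L, RPL22L1, RPL26L1 and RPL39L are lower relative to their partners in every LED library than in any TNF library, and RPL36AL overlaps. By their own CPM, RPS27L and RPL26L1 overlap between the groups.

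Genes that serve the ribosome were also examined by list. Of 20 elongation factors and other genes known for TOP messenger RNAs, 0 were called, with a median of 0.31, and 11 of the 14 with a promoter entry had a TOP start. NACA, a chaperone of nascent chains, had the lowest p among them, with 404, 602 and 364 CPM in LED 4, 6 and 10, and 341, 225 and 322 CPM in TNF 2, 8 and 14 (0.63 ± 0.24, adjusted p = 0.165 with edgeR). Without LED 6 the list median was 0.13 and the fold change of NACA 0.38.

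Of 30 initiation factors 1 was called higher and 0 lower (median 0.20, and 0.08 without LED 6), where 2.44% of all genes were called higher. EIF4A2, an RNA helicase of the cap-binding complex, had 234, 277 and 226 CPM in LED 4, 6 and 10, against 135, 65.5 and 120 CPM in TNF 2, 8 and 14. Its groups lay well apart, and it rose by 1.20 ± 0.26 on the log2 scale (adjusted p = 0.0358, edgeR), a call lost without LED 4, LED 6, LED 10 or TNF 14 (up to 0.146). Of 58 ribosome assembly factors 1 was called higher and 0 lower (median 0.17). The number called higher was 4 with DESeq2, 2 with a GC trend removed, 7 without both LED 6 and TNF 8, and 0 with scaling by library totals alone. In that order, these settings called 1646, 1209, 1669 and 591 of all genes, higher and lower together. The edgeR fit used above called 713, of which 336 were higher. Genes called higher alone were not counted over all genes under the other settings. The list counts there thus have no matching share beside them. RRS1, needed for maturation of the large subunit, had 80.7, 76.3 and 78.1 CPM in LED 4, 6 and 10, against 46.4, 53.9 and 40.6 CPM in TNF 2, 8 and 14. Its LED libraries lay close together, LED 6 included, and it rose by 0.74 ± 0.17 (adjusted p = 0.0428, edgeR). Among the single omissions the RRS1 call held only with TNF 8 left out (up to 0.166), and it was also lost with scaling by library totals alone (0.0546).

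Of 14 genes of the RNA polymerase I machinery, which makes ribosomal RNA, 1 was called higher and 0 lower (median 0.28, and 0.17 without LED 6). Over all genes 2.44% were called higher. The number called higher was 3 with DESeq2, 3 with a GC trend removed, 3 without both LED 6 and TNF 8, and 2 with counts divided by 4 or a filter of 1 CPM. In that order, these settings called 1646, 1209, 1669, 811 and 699 of all genes, higher and lower together, against 713 in the edgeR fit used above. Again, genes called higher alone were not counted over all genes under these settings. UBTF, the factor that keeps ribosomal DNA open for transcription, had 190, 190 and 175 CPM in LED 4, 6 and 10, against 89.6, 122 and 94.7 CPM in TNF 2, 8 and 14. It rose by 0.86 ± 0.18 (adjusted p = 0.0320, edgeR), again with no excess in LED 6. Among the single omissions the call held only with TNF 8 left out (up to 0.122). Of 15 tested regulators of growth and TOP translation 0 were called higher and 1 lower (median -0.02, and 0.05 without LED 6). Over all genes 2.73% were called lower. The regulator called lower was RPS6KA1, a kinase downstream of ERK, with 1.18, 1.23 and 1.57 CPM in LED 4, 6 and 10, against 3.42, 5.94 and 4.04 CPM in TNF 2, 8 and 14. It fell by 1.75 on the log2 scale (SE 0.30, adjusted p = 0.0172, edgeR), a call lost without LED 4, LED 6 or TNF 14 (up to 0.0952).

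Of 15 genes of ribosome rescue and quality control 0 were called (median 0.14, and 0.05 without LED 6). The lowest p there was that of EIF4E2, with a fold change of -0.33 ± 0.17 (adjusted p = 0.293, edgeR). Mitochondrial ribosomal proteins, which form the separate ribosome of mitochondria, had 1 of 78 called higher and 0 lower, with a median of 0.04, and -0.07 without LED 6. Over all genes 2.44% were called higher and 2.73% lower. MRPL18 had 95.7, 147 and 80.2 CPM in LED 4, 6 and 10, against 44.4, 57.0 and 45.2 CPM in TNF 2, 8 and 14. Its groups did not overlap and it rose by 1.14 ± 0.24 (adjusted p = 0.0339, edgeR), a call lost without LED 4, LED 6, TNF 2 or TNF 14 (up to 0.117). The median of the mitochondrial list stood at 0.20 in both LED 6 and TNF 8, whereas that of the cytosolic genes stood at 0.64 in LED 6 and -0.01 in TNF 8.

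**Figure D4:**
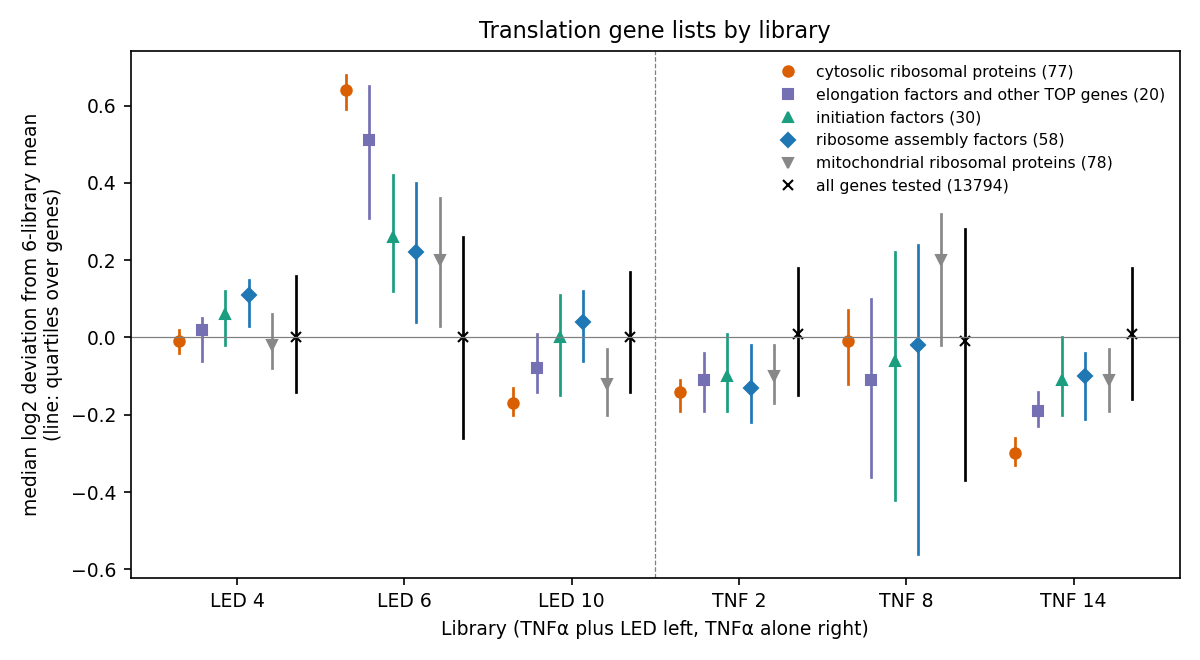
Median deviation of each gene list from the 6-library mean (y axis, log2 scale; lines span the quartiles over genes) in each library (x axis). Cytosolic ribosomal protein genes and elongation factors with other TOP genes stand highest in LED 6 at 0.64 and 0.51, initiation factors, assembly factors and mitochondrial ribosomal proteins lie between 0.20 and 0.26 there, and the median of all genes tested is near 0 in every library.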

How the data were processed

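Per the labels' protocols, Trizol-extracted RNA was depleted of ribosomal RNA, broken by heat and reverse-transcribed with random primers. The authors deposited estimated counts per gene symbol, as whole numbers, for 6 libraries. HISAT2, StringTie, bcl2fastq 2.0, limma and DESeq2 are listed, with no roles, in the submitters' processing notes, together with the mouse build mm10, although the cells are human. The human build, the strand setting and the handling of reads that match several copies are not given in the sources used here. Of the low values between 1 and 7, 41.8% equalled 4, so a fragment appeared to be worth about 4 units, and precision is that of the counts divided by about 4.

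Counts entered edgeR 4.0.16 (R 4.3.3) as deposited, with filterByExpr, TMM scaling, a robust quasi-likelihood fit and a two-sided test of LED (n = 3) against TNF (n = 3) without covariates. P-values were adjusted by Benjamini-Hochberg over all 13794 genes tested, with a threshold of 0.05. Standard errors were derived as the absolute log2 fold change over the root of the F statistic. CPM used TMM-scaled library sizes, and deviations used a pseudocount of 0.5 CPM. The procedure was tested on simulated counts. Chi-square comparisons within each group found no library to be a copy of another in its group. Lengths came from GENCODE 29, and start sites from the RefSeq table of GRCh38.p14. Promoter entries were used for names and start sites only, since the build behind the counts is not given.

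The genes and the companion lists were chosen with earlier results of these data known. Named by rule were the 5 largest and 5 smallest fold changes, the 5 highest mean CPM, paralogues, MDM2 binders, RPS19, and called genes of each companion list or the 1 with the lowest p. RPL15, RPL22, RPL23A, RPL26, RPL28, RPL32, RPS21, RPS24, RPS27 and HSPA1A were named after their values were seen. Alternatives were other filters and scalings, DESeq2 1.42.0, limma-voom (limma 3.58.1), counts divided by 4, removal of length or GC trends, membership variants, and each library left out in turn. Leaving out LED 6 and TNF 8 together, and the ratio of a paralogue to its partner, were added after the data were seen. The Y-linked paralogues are counted, but their levels are not given. Results of 1 companion list are not reported here.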

Additional observations from a re-analysis of the deposited data

How the results depend on the processing

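No ribosomal protein gene was called higher under any of the filters, scalings, tools, trend corrections, membership variants or omissions tried, and in the edgeR fit with TMM and filterByExpr 0 were called in either direction at an adjusted p below 0.1. DESeq2 called 2 lower, RPL22L1 and RPL39L. The median log2 fold change over the tested genes, 0.34, ranged from 0.06 (without LED 6) to 0.48 (without LED 10) over the single omissions, and was 0.26 with a length trend removed and 0.35 with a GC trend removed. The difference in the share of all counts was 0.80 percentage points, and 0.17 to 1.22 over the single omissions, the lowest without LED 6. RPL26L1 turned negative (-0.04 with the length trend removed, -0.18 without LED 6, and -0.18 without both LED 6 and TNF 8), and its single omissions spanned -0.18 to 0.18. Without LED 6, RPL35 (-0.11), RPS2 (-0.05) and RPL3 (-0.01) were also negative, and their highest values over single omissions were 0.32, 0.34 and 0.42. The cause was not tested. The LED minus TNF difference in the paralogue ratio ranged over single omissions from -12.49 to -7.24 percentage points for RPL22L1, -5.89 to -2.44 for RPL39L, -2.92 to -1.72 for RPS27L and -1.28 to -1.05 for RPL26L1, while that of RPL36AL spanned 0 (-0.90 to 8.90). Over all genes 713 were called, but 80 to 737 over the single omissions (80 without LED 6), 1669 without both LED 6 and TNF 8, 1209 with a GC trend removed and 1646 with DESeq2. Of initiation factors 2 were called higher with DESeq2 and 2 without both LED 6 and TNF 8, and of growth regulators 2 were called lower in each, with 1 and 2 called higher. Calls in a single direction were not counted over all genes under these settings. No paired analysis was possible because the sample numbers are not shared between the groups. The precision of a single mature ribosome gene, a standard error of at least 0.20 on the log2 scale with 3 libraries per group, limits what can be read from differences of the size seen.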
